A study of Lates calcarifer with 24 samples.

Results

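The probes of 2 genes of folate metabolism, aldh1l1 and shmt2, were followed in the liver of juvenile Asian seabass (Lates calcarifer) on 6 feeds. They are 2 of the 60080 probes on the array, and were taken because a supplementary table of the study pairs their design numbers with these symbols: CUST_1363_PI428621111 with aldh1l1 and CUST_19275_PI428621111 with shmt2. That table lists transcripts picked from the arrays of Groups A to D, so the values of Groups B, C and D against A are given as a description, with no test.

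Fish of Groups B, C, D, E and F ate 5 different commercial pellets, and fish of Group A, the control, ate frozen baitfish. Feeding ran for 61 days, with a start at 107 days post-hatch (dph) and sampling of the livers at 168 dph. Group F received a smaller pellet ration than Groups B to E because its fish would not eat more, Group E stayed on a single pellet size, and baitfish, being wetter, were given at a larger share of body weight. All fish came from 1 cross of a single pair of fast-growing brooders and were raised on pellets before the trial. Each group has 4 arrays, which the labels number as replicates 1 to 4. The study's methods name more fish per feed for the extraction of RNA than there are arrays, and whether an array holds RNA of a single fish is not stated. The labels do not say which rearing canvas a fish came from, and differences between canvases were not tested.

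Folate carries single-carbon units that the cell moves between serine, glycine, formate, purines, thymidylate and methionine. The enzyme encoded by aldh1l1, formyltetrahydrofolate dehydrogenase, oxidises the formyl group of cytosolic formyltetrahydrofolate to carbon dioxide, forms NADPH and releases free tetrahydrofolate. It is an abundant enzyme of mammalian liver. The enzyme encoded by shmt2 is the mitochondrial serine hydroxymethyltransferase, which moves a carbon from serine to tetrahydrofolate and so makes glycine and methylenetetrahydrofolate. In short, shmt2 loads carbon units onto the carrier and aldh1l1 takes them off as carbon dioxide.

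Both transcripts were also measured by PCR, and the primers are shown, 5′ to 3′, because they mark which transcript each symbol was meant to name.
aldh1l1 forward: catcatctaccacccctccc
aldh1l1 reverse: aggattggtccagtgtccag
shmt2 forward: tgctgaggaagagctacacc
shmt2 reverse: cgggcaggtgttcttattgg
Each primer has 20 bases. A RefSeq gene table of the species lists 1 gene each under aldh1l1, shmt2 and the names of their close relatives aldh1l2, a mitochondrial form of the dehydrogenase, and shmt1, the cytosolic form of the transferase. Whether the probes also bind transcripts of these relatives was not tested. The probes of other folate genes could not be named and were not analysed here.

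The arrays lay on 3 slides of 8, scanned on 1 day. Slide 1 was the dimmest: the 75th percentile of intensity lay between 22.2 and 32.9 there, compared with 42.4 to 57.7 for slide 2 and 44.7 to 80.2 for slide 3. Slide 1 holds 2 arrays each of Groups B and A and 1 each of the other groups. Between 20.4% and 36.0% of the spots of an array were well above background. The probes of serpina1 and lbp, which encode proteins that liver cells secrete, were well above background on all 24 arrays, as were those of aldh1l1 and shmt2, neither of which was saturated on any array. Signals below are log2 of background-subtracted intensities, quantile-normalized over the 24 arrays. In bulk liver, fewer cells of a type and less RNA per cell cannot be told apart.

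The letters used here are those of the sample labels, and they are not settled. The study tabulated ratios of Groups B, C and D to Group A and to each other from its arrays. If the arrays carrying the letters E and F are taken for C and D, these ratios are matched more nearly than under the given letters. Over the 15 probes paired with a symbol, 60 readings of the pellet letters as B, C and D were compared. The reading with B kept and E and F taken for C and D ranked 1, with a mean absolute log2 difference of 0.107. The letters as given ranked 42, with 0.604. With slide in the fit, the reading ranked 1 kept its rank, with 0.050, and the next had 0.157. The letters as given then ranked 43, with 0.603. Under the exchanged reading, arrays labelled E and F would be the ones that chose the genes, and those labelled C and D would not. Values given below for Groups C, D, E and F would then belong to other feeds than their letters say. The tests of Groups E and F below are separate from the choice of the genes only if the labels are right, and in either case they share the 4 arrays of Group A with it.

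The clearest feature of aldh1l1 was its low signal in Group D as labelled. Under the exchanged reading these arrays would not be those of the study's Group D. On the 4 arrays of Group D the log2 signal was 11.45, 11.03, 12.08 and 12.22, against 12.98, 13.32, 13.53 and 13.64 in Group A. All 4 arrays of Group D lay below all 4 of Group A, which held for 2.02% of probes. They also lay below all 20 other arrays, which held for 0.06% of probes. The mean was 11.69 ± 0.56 in Group D and 13.37 ± 0.29 in Group A (SD, n = 4 each). In linear terms the geometric mean intensity was 3312 in Group D and 10564 in Group A. The difference of -1.67 log2 (SE 0.26) is a 3.19-fold lower signal.

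In the other pellet groups aldh1l1 stayed nearer to the baitfish-fed fish. The log2 signal was 12.43, 12.51, 13.44 and 13.22 in Group B, 13.52, 13.31, 13.62 and 14.08 in Group C, 12.87, 12.86, 12.67 and 13.06 in Group E, and 13.17, 13.20, 13.02 and 13.57 in Group F. Each of these groups overlapped Group A. The mean of Group B was 12.90 ± 0.51 and that of Group C 13.63 ± 0.33, with 12.87 ± 0.16 in Group E and 13.24 ± 0.23 in Group F (SD, n = 4 each). Ordered by mean, the groups ran C, A, F, B, E and D. Only the step between the last neighbours, E and D, separated the arrays of both groups, by 1.17 log2 between their means, and every other pair of neighbours overlapped. The difference from Group A was -0.47 log2 in Group B and 0.26 log2 in Group C (SE 0.26 each), both inside the 2-fold range.

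**Figure D1:**
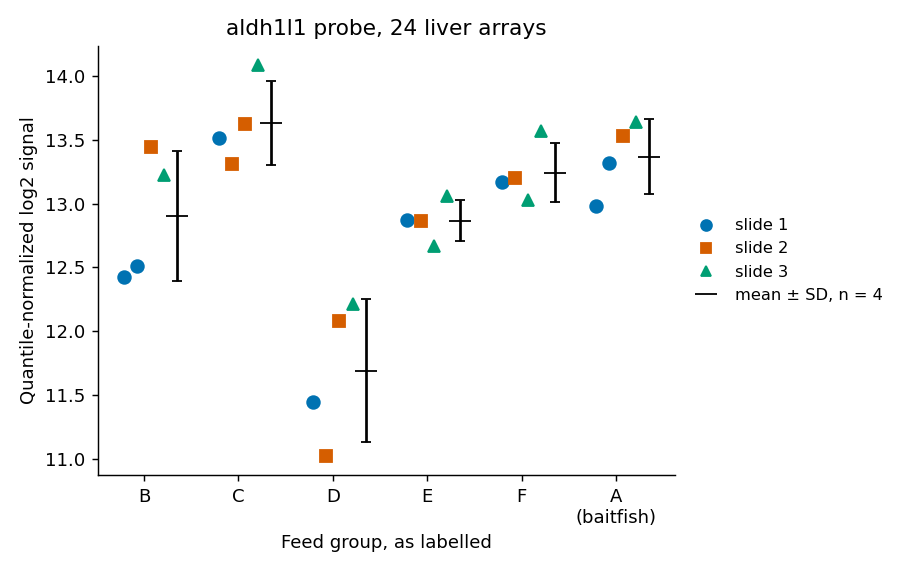
Log2 signal of the aldh1l1 probe (y axis, quantile-normalized) by feed group (x axis), with 1 point per array, marked by slide, and the group mean ± SD over 4 arrays. The 4 arrays of Group D, at 11.03 to 12.22, lie below every other array.

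The shmt2 signal had its lowest mean in the baitfish-fed fish. Group B had log2 signals of 9.32, 9.19, 9.80 and 10.66, Group C had 9.14, 9.47, 9.88 and 10.12, and Group D had 8.61, 8.75, 9.44 and 9.41. On the arrays of Group A the signal was 8.03, 7.64, 8.87 and 9.53, a spread wider than in any pellet group. Every pellet group overlapped Group A. Groups B and C did so only through its array at 9.53, while Group D, like Groups E and F, also had arrays below its array at 8.87. The mean of Group B was 9.74 ± 0.67, that of Group C 9.65 ± 0.43 and that of Group D 9.05 ± 0.44, against 8.52 ± 0.85 in Group A (SD, n = 4 each). Set against Group A, the signal of Group B was higher by 1.22 log2, that of Group C by 1.13 and that of Group D by 0.53 (SE 0.36 each), which are 2.33-fold, 2.19-fold and 1.45-fold higher signals.

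Groups E and F held an intermediate shmt2 signal, of 8.85, 9.13, 9.37 and 9.16 in Group E and 8.67, 9.17, 9.11 and 9.33 in Group F. Their means were 9.13 ± 0.21 and 9.07 ± 0.28 (SD, n = 4 each). Ordered by mean, the groups ran B, C, E, F, D and A, and each pair of neighbours in that order overlapped. The orders of both genes differed: by falling mean, Group B ranked 4 for aldh1l1 and 1 for shmt2, and Group A ranked 2 for aldh1l1 and 6 for shmt2. Group D lay only 0.015 log2 below Group F for shmt2.

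**Figure D2:**
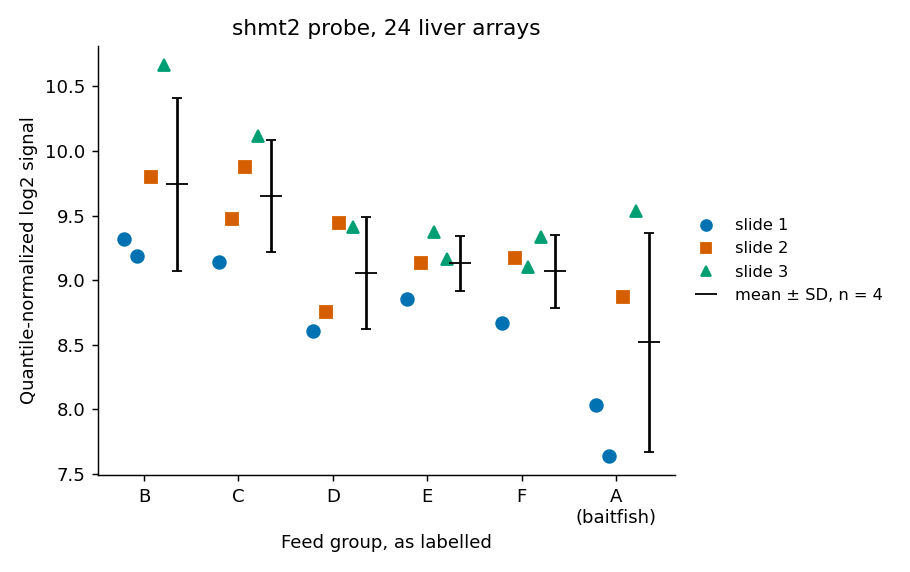
Log2 signal of the shmt2 probe (y axis, quantile-normalized) by feed group (x axis), with 1 point per array, marked by slide, and the group mean ± SD over 4 arrays. Group A has both the lowest mean, 8.52, and the widest spread, from 7.64 to 9.53.

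Neither gene passed the test in Group E or Group F. In limma, a linear model with moderated variances over all probes, the aldh1l1 signal differed by -0.50 log2 between Groups E and A (95% interval -1.05 to 0.044, adjusted p = 0.685) and by -0.13 log2 between Groups F and A (-0.67 to 0.42, adjusted p = 1.0). Group E exceeded Group A in 1 of 16 pairs of arrays. The exact two-sided permutation test of the difference between the group means gave p = 0.0571. For Group F the pairs numbered 6 of 16, and the same test of the means gave an exact p of 0.514. With 4 arrays against 4, this test cannot go below 0.0286.

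For shmt2 the difference from Group A was 0.61 log2 in Group E (95% interval -0.15 to 1.37, adjusted p = 0.735 in limma) and 0.55 log2 in Group F (-0.21 to 1.31, adjusted p = 0.828). Both groups exceeded Group A in 11 of 16 pairs of arrays. The exact permutation test of the difference between means gave p = 0.286 for each. Both intervals include 0 as well as the differences of Groups B and C. In Group E the difference was 0.32 log2 without replicate 2 of Group A and 0.95 without its replicate 4. Of all probes, 0.0283% passed an adjusted p of 0.05 between Groups E and A and 0.0383% between Groups F and A, and neither gene was among them. At an unadjusted p below 0.05, limma called 8.04% of probes for Group E and 6.72% for Group F, again without either gene. The methods' t-test gave 0.0237 for aldh1l1 in Group E (0.873 after adjustment), and called 2972 of 60080 probes there before adjustment. Some other settings also gave values below 0.05 before adjustment, and the share of all probes below it was not computed under those settings. With slide in the fit, limma gave 0.0172 for aldh1l1 in Group E (0.344 adjusted). With replicate number in the fit, limma gave 0.0170 for aldh1l1 in Group E (0.370 adjusted). For shmt2 that fit gave 0.0149 in Group E (0.352 adjusted) and 0.0258 in Group F (0.495 adjusted). Without replicate 4 of Group A, limma by feed group gave shmt2 0.0132 in Group E (0.389 adjusted) and 0.0191 in Group F (0.482 adjusted). Without replicate 1 of Group A, it gave 0.0357 for aldh1l1 in Group E (0.525 adjusted).

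Taking Groups E and F together against Group A, aldh1l1 differed by -0.31 log2 (adjusted p = 0.832 in limma, exact permutation p = 0.101) and shmt2 by 0.58 log2 (adjusted p = 0.672, exact p = 0.125). This comparison called 0.161% of all probes (8.26% unadjusted), and neither gene. With replicate number in the fit, the unadjusted limma p of shmt2 was 0.00856 (0.247 adjusted). By feed group alone, without replicate 4 of Group A, the unadjusted limma p of shmt2 was 0.00763 (0.269 adjusted). Group F, on the smaller ration only if the given letters are right, was set against Group E as well, a comparison with no array of Group A. The mean aldh1l1 signal was higher in Group F by 0.38 log2, without passing the test (95% interval -0.17 to 0.92, adjusted p = 1.0 in limma, exact p = 0.0571). Group F exceeded Group E in 15 of 16 pairs of arrays. The shmt2 signal differed by -0.060 log2 (-0.82 to 0.70, adjusted p = 1.0, exact p = 0.686). Between Groups F and E limma called 0% of probes after adjustment, with 2646 (4.4%) at an unadjusted p below 0.05, and the methods' t-test also called 0, with 1493 unadjusted.

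**Figure D3:**
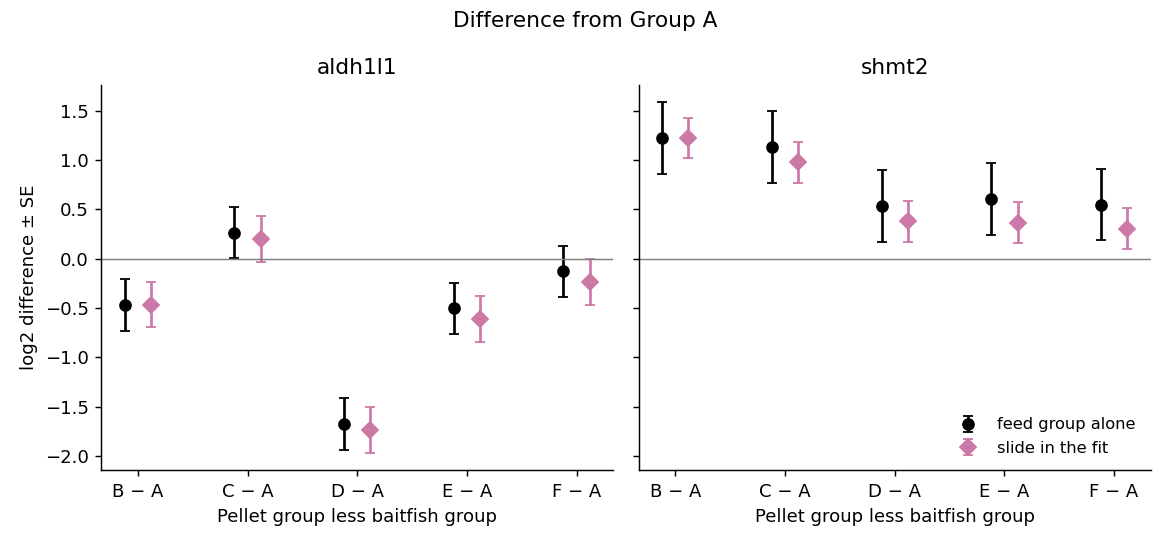
Difference of each pellet group from Group A in log2 units with its standard error from limma, for aldh1l1 and shmt2, with and without slide in the fit. The aldh1l1 difference in Group D is -1.67 without slide and -1.73 with it, and the shmt2 differences are smaller with slide for Groups C, D, E and F.

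The shmt2 signal differed more between slides than that of aldh1l1. Slides accounted for 38.4% of the sum of squares of shmt2 and 6.06% of that of aldh1l1. The mean shmt2 signal was 8.68 on slide 1, 9.31 on slide 2 and 9.59 on slide 3. On slide 1 all 6 pellet arrays lay above both arrays of Group A, at 8.61 to 9.32 against 7.64 to 8.03. On slide 3, by contrast, all 5 arrays of Groups D, E and F lay below the single array of Group A, which had 9.53.

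Set against Group A on the same slide, the shmt2 difference varied between slides. In Group B it was 1.42, 0.93 and 1.13 log2 on slides 1, 2 and 3, and in Group C it was 1.30, 0.81 and 0.58. It changed sign on slide 3 in Group D (0.77, 0.23 and -0.12), in Group E (1.01, 0.26 and -0.27) and in Group F (0.83, 0.30 and -0.32). With slide as a factor in the fit the differences became 1.22 for Group B and 0.98 for Group C, while those of Groups D, E and F became 0.38, 0.37 and 0.31 in that order. The pooled spread within groups was 0.29 in place of 0.53 log2. Slides 2 and 3 hold a single array of Group A each, and the part of the slide in these values was not tested.

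For aldh1l1 the low signal of Group D was present on each slide, at -1.70, -1.98 and -1.43 log2 against Group A on slides 1, 2 and 3. The difference in Group E was -0.28, -0.67 and -0.77, and with slide in the fit it was -0.62 (adjusted p = 0.344 in limma). In Group F it was 0.022, -0.33 and -0.34, so its sign differed on slide 1. In Group C it was 0.37, -0.066 and 0.44, with a change of sign on slide 2, and in Group B it was -0.68, -0.091 and -0.42. The pooled spread within groups was 0.37 log2, or 0.33 with slide in the fit, against a median of 0.45 over the 7960 probes that were well above background on all arrays and complete.

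**Figure D4:**
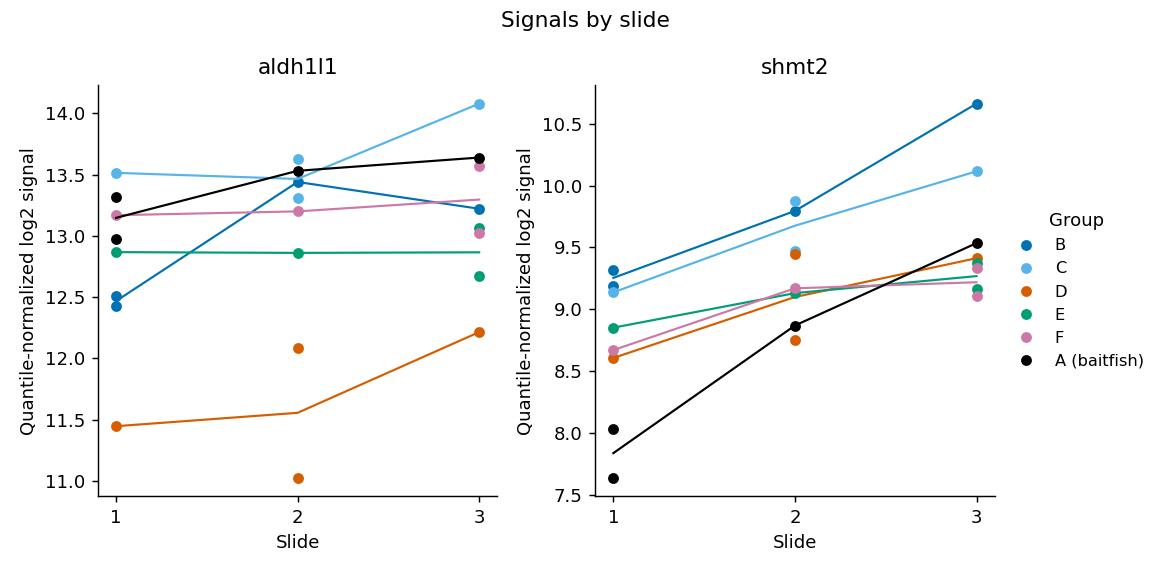
Log2 signal of aldh1l1 and shmt2 on each array (y axis) by slide (x axis), with colours for the 6 groups and lines that join each group's mean on each slide. For shmt2, the arrays of Group A lie lowest on slide 1, at 7.64 and 8.03, and the one on slide 3, at 9.53, lies above those of Groups D, E and F.

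The change of shmt2 relative to aldh1l1 was followed as the difference of their log2 signals on the same array, which cancels a scaling factor shared by an array. Only its change between groups is read, since levels of different probes are not comparable. Relative to Group A, shmt2 less aldh1l1 was higher by 2.21 log2 in Group D and by 1.69 in Group B, and by 0.87 in Group C. In Group D most of this came from aldh1l1 (-1.67) and in Group B most came from shmt2 (1.22).

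In Group E the difference was higher than in Group A by 1.11 log2. The values were -4.02, -3.73, -3.30 and -3.90 in Group E, against -4.94, -5.68, -4.66 and -4.11 in Group A, so all 4 arrays of Group E lay above all 4 of Group A. Among single probes, all 4 arrays of Group E lay above all 4 of Group A for 1.87% and below them for 1.65%. The share among differences of probe pairs was not computed. For shmt2 less aldh1l1, the exact two-sided permutation test gave p = 0.0286, the smallest it can give, and 0.137 after adjustment over the 12 exact tests made. On unnormalized signals the shift was 1.06 log2, with an exact p of 0.0571. In Group F the shift of the mean was 0.68 log2 (exact p = 0.0857, adjusted 0.171), and Group F exceeded Group A in 14 of 16 pairs of arrays. For Groups E and F together the shift of the mean was 0.89 log2 (exact p = 0.0121, adjusted 0.137), and they exceeded Group A in 30 of 32 pairs. Between Groups F and E the shift was -0.44 log2 (exact p = 0.0571, adjusted 0.137). None of the 12 passed after adjustment, and none took slide into account. Tests against Group A share its arrays with the choice of the genes. Under the exchanged reading, the arrays of Groups E and F would have taken part in that choice too. On slide 3 alone, the shift from Group A was 0.51 log2 in Group E and 0.027 in Group F.

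**Figure D5:**
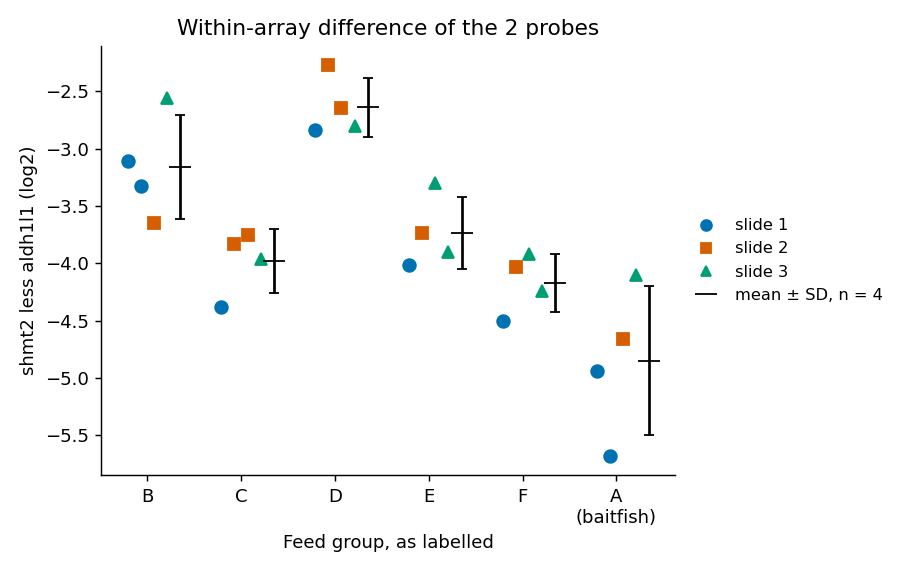
Log2 signal of shmt2 less that of aldh1l1 on each array (y axis) by feed group (x axis), with the group mean ± SD over 4 arrays. The 4 arrays of Group D, at -2.84 to -2.27, are shifted furthest from those of Group A, at -5.68 to -4.11.

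Among arrays of the same feed group, aldh1l1 and shmt2 varied together when all slides were pooled. With group means removed, Pearson's r over the 24 arrays was 0.66 (permutation p = 0.00322, arrays permuted within groups) and Spearman's rho was 0.73 (permutation p = 0.00172). Without the 2 arrays farthest from the median, r was 0.71 (permutation p = 0.00258). This was 1 relation, so no adjustment was made. With slide means removed as well, r was 0.44 (permutation p = 0.0502) and rho was 0.37 (permutation p = 0.107). Within slides, r was -0.075 on slide 1, 0.75 on slide 2 and 0.43 on slide 3 (n = 8 each), so the relation did not hold on slide 1. Across all arrays with group means kept, r was 0.28, and it was also 0.28 over the 20 arrays without Group D. All arrays share 1 normalization and 3 slides.

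The probes most like each gene over the 24 arrays were sought among 14201 probes well above background on at least 12 arrays, and are given as a description. For aldh1l1 these were CUST_7873_PI428621111 (r = 0.78) and CUST_25387_PI428621111 (r = 0.77), and the most opposed were CUST_10238_PI428621111 (r = -0.85) and CUST_5703_PI428621111 (r = -0.83). For shmt2 they were CUST_1626_PI428621111 (r = 0.85) and CUST_21452_PI428621111 (r = 0.84), against CUST_41230_PI428621111 (r = -0.80) and CUST_5478_PI428621111 (r = -0.79). None of these 8 probes has a gene name in the sources used here. Without the arrays of Group D, r with aldh1l1 was 0.57 for CUST_7873_PI428621111, 0.28 for CUST_25387_PI428621111, -0.71 for CUST_10238_PI428621111 and -0.50 for CUST_5703_PI428621111. With slide means removed, r with shmt2 was 0.76 for CUST_1626_PI428621111 and 0.80 for CUST_21452_PI428621111, against -0.66 for CUST_41230_PI428621111 and -0.62 for CUST_5478_PI428621111.

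Among the named probes, aldh1l1 was most like p4hb, which encodes a protein disulfide isomerase of the endoplasmic reticulum, with r = 0.74 (rank 8 of 14201). It was followed by serpina1, an antiprotease secreted by the liver, with r = 0.68 (rank 36), and ssr1, a subunit of the translocon-associated protein complex, with r = 0.58 (rank 142). The most opposed were pip4k2aa, a phosphatidylinositol phosphate kinase, and tnfsf14, a cytokine of the tumour necrosis factor family, with r = -0.70 each. The probe of lbp, which like serpina1 encodes a protein secreted by liver cells, went the other way from serpina1, with r = -0.58 (rank 13832). Without the arrays of Group D, r was 0.45 for p4hb, 0.42 for serpina1 and 0.36 for ssr1 over 20 arrays. On the same arrays it was -0.34 for pip4k2aa, -0.38 for tnfsf14 and -0.38 for lbp. Over the 24 arrays with group and slide means removed, r was 0.24 for p4hb, 0.33 for serpina1 and 0.044 for ssr1. It was then -0.36 for pip4k2aa, -0.28 for tnfsf14 and 0.11 for lbp, so the sign of lbp changed.

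For shmt2 the named probe most like it was gnpda1, a glucosamine-phosphate isomerase, with r = 0.47 and only rank 779. This order depended on the slides. With slide means removed, r with shmt2 was 0.65 for elovl5, a fatty acid elongase, and 0.51 for tlr8a, a receptor of innate immunity. For gnpda1 it was then 0.46. With group means removed as well, r was 0.31 for elovl5, -0.012 for tlr8a and 0.21 for gnpda1. With group means alone removed, it was -0.36, -0.20 and 0.30 in that order. The tlr8a probe was well above background on only 15 of the 24 arrays. For serpina1, r with shmt2 was 0.095 as measured, 0.73 with group means removed, -0.31 with slide means removed and 0.20 with both removed.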

How the data were processed

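Liver RNA was labelled with Cy3 and hybridised to 24 one-colour Agilent arrays. Per the file headers, the authors extracted the scans with Feature Extraction 10.7.1.1, and the deposited scanner output holds linear intensities per spot (background-subtracted, and median with background) and yes or no flags. The authors also deposited processed log2 signals, which they quantile-normalized in Partek, and these served as an alternative. Group and replicate came from the labels, and slide from a number in the names of the scanner output. By name 0 columns of the processed signals were unmatched, and no arrays held identical values. By their values, 21 arrays were most like the processed column of their own label (r 0.951 to 0.957). The other 3, replicates 2, 3 and 4 of Group F, were most like the processed columns of replicates 3, 4 and 2 (r 0.955 to 0.956). Which numbering is right is not known. Group means are not affected, and replicate numbers here are those of the scanner output. The fits with replicate number and the correlations of same-numbered arrays depend on this numbering for Group F.

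Background-subtracted intensities were log2-transformed, without control and outlier spots, averaged over repeat spots and quantile-normalized over 24 arrays. All 60080 probes were fitted by feed group alone with limma 3.58.1 (R 4.3.3), with Benjamini-Hochberg adjustment per comparison and 0.05 as the threshold. The study's methods name a three-way ANOVA whose factors are not given in the sources used here. Single values of Groups E and F had exact permutation tests of the difference between group means. The relation between the genes had a permutation test within groups (100000 resamples). The number of arrays limits the precision, and the p-values of group differences set them against the spread between arrays. Python 3.11.15, numpy 2.4.6, pandas 2.3.3, scipy 1.17.1, matplotlib 3.10.9 and, in R, version 1.17.8 of data.table were also used. The fit was tested on simulated data.

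Named probes were the 2 genes, the 2 most like and the 2 most opposed to each, and the others of the 15 probes paired with a symbol. The members, lists and tests were chosen with earlier results of these data known. Correlations without group means, without group and slide means or without Group D, the exchange of labels and the match of processed columns by value were added after seeing the data. Normexp (offset 50) used the median signal, since the scanner output holds no mean signal. No comparison columns of the authors were used.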

Additional observations from a re-analysis of the deposited data

How the results depend on the processing

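Scaling by the 75th percentile (of every probe, or of those above background on every array), normexp, the deposited values, keeping outlier spots, leaving out dim probes, a slide block, a replicate block, an intensity trend in the variance, the methods' t-test and, for Groups B to D, a fit of Groups A to D alone kept the sign of every group difference. Over these settings the aldh1l1 difference of Group D from A was -1.86 to -1.64 log2, and -1.85 to -1.45 leaving out 1 array at a time. Neither gene passed in Groups E or F under any of them, and the adjusted p ranged from 0.247 to 1.0.

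All replicates 1 lay on slide 1 and all replicates 4 on slide 3. Same-numbered arrays correlated at a median of 0.26, 0.11, 0.017 and 0.33 for replicates 1 to 4, against -0.063 for others, but at -0.43 at lowest (replicate 3), so the numbers were not taken as pairs. With a replicate block, limma called 33 probes between Groups E and A, 45 between F and A, 191 for both and 0 between F and E, and the adjusted p was 0.370 for aldh1l1 in Group E and 0.247 for shmt2 in both together. It changed no call of either gene.

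Probes called numbered from 0 (the methods' t-test) to 105 (dim probes left out) for Group E (17 as reported), from 4 to 45 for Group F (23 as reported), and from 8 to 191 for both (97 as reported). Leaving out 1 array gave 3 (replicate 4 of E) to 223 (replicate 2 of E) for Group E, 15 (replicate 1 of A) to 58 (replicate 4 of A) for Group F, and 23 (replicate 3 of A) to 313 (replicate 2 of E) for both. Between Groups F and E it gave 0 to 6 (replicate 1 of F).

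Within slides, aldh1l1 in Group B differed by -0.091 on slide 2, and on slide 3 shmt2 differed by 0.58 in Group C, -0.12 in D, -0.27 in E, -0.32 in F and -0.29 in both together. The shift of shmt2 less aldh1l1 was 2.10 in Group B on slide 1 and 1.02 on slide 2, and on slide 3 it was 0.14 in C, 1.30 in D, 0.51 in E, 0.027 in F and 0.27 in E and F together. In Group E that shift was 1.06 on unnormalized signals, and 0.83 to 1.36 leaving out 1 array, where the exact permutation test cannot go below 0.0571. The shmt2 difference between Groups F and E ranged from -0.15 to 0.073, with 0.020 without replicate 3 of Group E and 0.073 without replicate 1 of Group F. The correlation within groups was 0.44 with slide means removed. The cause was not tested.

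The shmt2 differences leaned on the arrays of Group A. Without its replicate 2 they were 0.24 in Group D, 0.32 in E and 0.26 in F, and without its replicate 4 they were 0.87, 0.95 and 0.89. Both probes were well above background on all 24 arrays. Whether the dimmer signal of slide 1 bore on their values was not tested.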
